A study of Caenorhabditis elegans with 4 samples.

Results

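The regions described here are the CEH-16::GFP peaks on chromosome X of Caenorhabditis elegans. They were chosen by position alone, as every row of the combined peak list that lies on X, and they number 423 of the 1848 peaks on the 6 chromosomes. The lists of the individual immunoprecipitations held 255 of 1017 peaks on X in replicate 1 and 201 of 785 in replicate 2. Peaks came from chromatin immunoprecipitation and sequencing, in which DNA crosslinked to a tagged protein is recovered with an antibody against the tag. All animals were hermaphrodites at the L2 larval stage, grown at 20 °C, of strain OP82. This strain carries the mutation unc119(ed3) and the transgene wgIs82, in which ceh-16 is joined to TY1, EGFP and FLAG and unc119 is supplied as well. The transgene was introduced by biolistic transformation, and the strain was not outcrossed. The series has 2 ChIP libraries, pulled down with anti-GFP antibodies, and 2 Input libraries made from part of the chromatin without pull-down, all 4 from this strain. Input values and strains without the tag were not analysed here. Each peak has a q-value from the authors' peak caller, all below 0.01, and read depth is unknown. The lists carry no expression values, so stage and tissue could not be checked against markers. Nothing in the labels tells whether separate cultures were used for the replicates, and the spread between them may be technical.

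CEH-16, the worm homologue of Engrailed, binds DNA through a homeodomain and is known in C. elegans for its role in the seam cells, the stem-like cells of the lateral epidermis. Hermaphrodites carry a pair of X chromosomes, and the dosage compensation complex binds along both and lowers their transcription. The X chromosome is also known to be poor in genes expressed in the germ line. On the autosomes, the centres recombine little and hold many conserved genes, while the arms recombine more and hold more repeats. This contrast is known to be weaker on X. Positions are in the WS220 build, and since the gene table at hand describes another build, no gene or sequence was assigned to a peak.

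Peaks lay more densely on X than on any autosome in all 3 lists. The combined list had 24.5 peaks per Mb on X, against 17.4 per Mb on the autosomes, where density is counted over the stretch of a chromosome bounded by its outermost combined peaks. Replicate 1 had 14.8 peaks per Mb on X and 9.31 on the autosomes, and replicate 2 had 11.6 on X and 7.14 on the autosomes. The combined ratio of X to the autosomes was thus 1.41, and those of replicates 1 and 2 were 1.59 and 1.63. Chromosome II was the densest autosome in each list, with 21.5 peaks per Mb (combined), 12.5 (replicate 1) and 9.97 (replicate 2). The density on X was 1.14, 1.18 and 1.17 times that of chromosome II in the same 3 lists. Chromosome I was the sparsest, with 12.2 peaks per Mb in the combined list, and without it the ratio of X to the other autosomes was 1.32. Called bases were likewise denser on X: combined peaks covered 12.9 bp per kb of X, against 8.92 bp per kb of the pooled autosomes. The highest single autosome was II, at 11.2 bp per kb. No test was run between X and the autosomes here or below, because peaks are not replicates. Intervals in the text are exact binomial (Clopper-Pearson, 95%) and cover the counting of peaks only, as if peaks were independent.

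**Figure D1:**
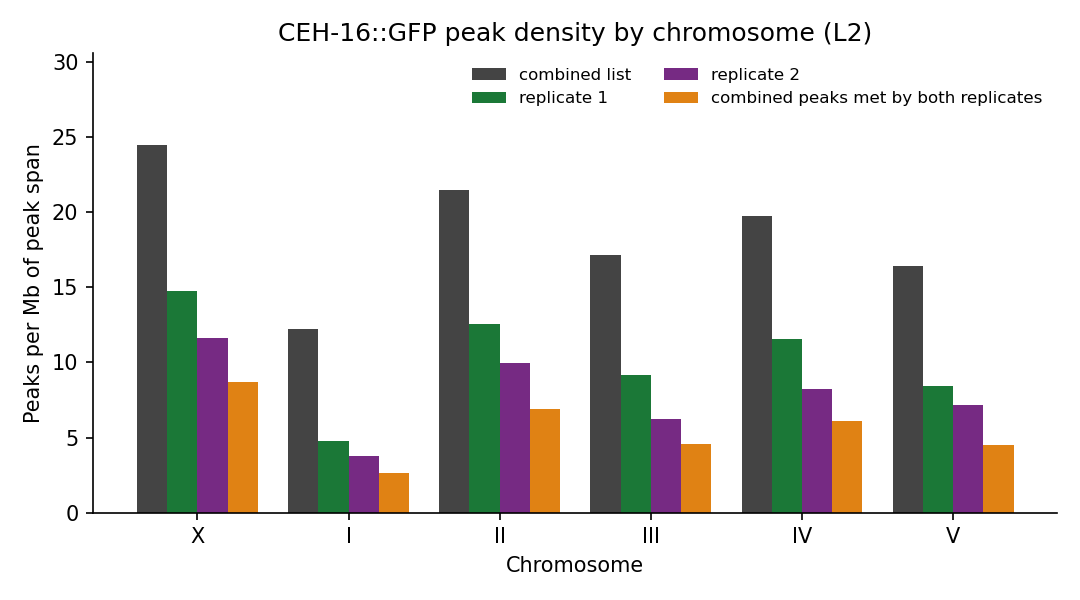
Peaks per Mb of peak span (vertical axis) on each chromosome, for the combined list, replicate 1, replicate 2 and the combined peaks met by both replicates (bars). X is the highest in each of these sets, from 24.5 per Mb in the combined list to 8.68 per Mb among peaks met by both replicates.

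A higher count on X did not go with smaller q-values there. The median q-value in the combined list was 0.000159 on X and 0.000156 on the autosomes. In that list 15.6% of X peaks (12.3 to 19.4%) and 13.9% of autosomal peaks (12.1 to 15.8%) had a q-value below 1e-10. Among the 50 strongest peaks of the combined list 8 lay on X (16%, 7.17 to 29.1%), an interval that holds the 22.9% of X in the whole list. X held 12 of the 50 strongest in replicate 1 (24%, against 25.1% of that list) and 10 in replicate 2 (20%, against 25.6%). Within the 200 strongest, X held 54 peaks (27%, 21.0 to 33.7%) in the combined list, and also 54 in each replicate list. The interval of each of these shares holds the share of X in its list.

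The strongest region on X, from 6740645 to 6744315 in the centre, was also its widest, at 3671 bp. It had a combined q-value of 6.94e-41 and was the eighth strongest peak of the genome. Replicate 1 called it as a single peak from 6741044 to 6744273 with a q-value of 1.65e-27, rank 6 in that list. Replicate 2 called it as 2 peaks. The left one, 6741519 to 6742511, had a q-value of 4.97e-08 and rank 109, and the right one, 6743491 to 6744259, had a q-value of 2.95e-11 and rank 42. The stretch between them was called in replicate 1 and not in replicate 2.

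The second strongest region, 6091735 to 6093199 in the left arm (1465 bp, combined q-value 5.45e-36), was alike in both libraries. It was called from 6091849 to 6093220 at rank 14 in replicate 1 (q-value 1.42e-21) and from 6091740 to 6093086 at rank 13 in replicate 2 (q-value 5.97e-17). The third, 11605398 to 11607162 in the centre (1765 bp, combined q-value 9.64e-36), was a single peak at rank 15 in replicate 1. In replicate 2 it was divided into a peak at rank 24 (q-value 1.69e-14) and a second at rank 563 (q-value 0.00262). The fourth, 15310138 to 15311340 in the right arm (1203 bp, combined q-value 6.14e-35), showed the reverse. Replicate 2 had 1 peak there at rank 15 (q-value 1.22e-16), and replicate 1 had 2, at ranks 50 and 192.

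The next 6 regions had combined q-values from 2.46e-26 to 3.19e-21. Those in the right arm were 14499847 to 14500752, 13143609 to 13145647 and 14575822 to 14576630. The centre held 12171341 to 12173069 and 10567980 to 10569166, and the left arm held 4960971 to 4962644. Divided calls recurred among them: replicate 1 had 2 peaks within 13143609 to 13145647 (q-values 8.79e-07 and 8.24e-08), where replicate 2 had 1 (1.71e-10). Replicate 2 had 2 peaks within 4960971 to 4962644 (0.0001 and 1.67e-05), where replicate 1 had 1 (1.11e-11). Thus 5 of these 10 regions were called as 1 peak by one library and as 2 by the other. On all of X, 8 combined peaks (1.89%) joined 2 peaks of a replicate, 4 in each replicate, and on the autosomes 23 joined 2 or more (1.61%).

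Whether both immunoprecipitations called the X regions was examined by overlap of at least 1 bp. Among the 423 X peaks, 150 met a peak in both replicates (35.5%, 30.9 to 40.2%), against 405 of 1425 on the autosomes (28.4%, 26.1 to 30.8%), and the share over all 1848 peaks was 30.0%. Peaks met by neither replicate numbered 135 on X (31.9%, 27.5 to 36.6%) and 546 on the autosomes (38.3%, 35.8 to 40.9%), with 36.9% over all peaks. Single autosomes ran from 31.2% on II to 52.2% on I in this class, so chromosome II was about level with X. The classes met by a single replicate made up like shares in both: 91 X peaks met replicate 1 alone (21.5%) and 47 met replicate 2 alone (11.1%), against 21.9% and 11.4% on the autosomes. Among the autosomes the share met by both ran from 21.4% on I to 32.1% on II, so X lay above each of them, though the interval on II (27.1 to 37.5%) overlapped that on X. Seen from the replicate lists, 153 X peaks of replicate 1 met a replicate 2 peak (60.0%, 53.7 to 66.1%), against 54.3% on the autosomes. In the other direction, 153 X peaks of replicate 2 met a replicate 1 peak (76.1%, 69.6 to 81.8%), against 71.1% on the autosomes. Single autosomes reached 56.0% (II) in the first of these directions and 75.4% (IV) in the second, so chromosome IV was about equal to X there. In bases, 68.9 kb were called in both replicates on X, or 44.0% of the bases called in either, against 39.2% on the autosomes and 42.4% on IV. These shared bases were 67.6% of those called in replicate 2 on X, and III (70.7%) and IV (70.9%) had higher shares.

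The overlap fell off sharply along the q-value order, on X as on the autosomes. All 112 X peaks in the strongest 25% of the combined list met both replicates (lower bound 96.8%), against 312 of 350 autosomal peaks (89.1%, 85.4 to 92.2%). The other 38 autosomal peaks of that class each met 1 replicate. Single autosomes ranged from 78.7% on I to 95.1% on IV in this class. In the next 25% of the list, 38 of 99 X peaks met both (38.4%, 28.8 to 48.7%), against 90 of 363 on the autosomes (24.8%, 20.4 to 29.6%). Single autosomes there ran from 5.0% on I to 30.0% on IV, and the values of IV and V (29.2%) lay within the interval on X. Among the weaker 50% of the list, 0 of 212 X peaks met both (upper bound 1.73%), and 3 of 712 autosomal peaks did (0.421%), so such peaks rarely met both on any chromosome. Ordered by q-value, the first X peak that did not meet both replicates was the 120th, at 13920296 to 13920856 (q-value 5.04e-07), which met replicate 1 alone. On the autosomes the first such peak was the 148th of 1425, on chromosome I (q-value 1.15e-12). The weakest X peak met by both, 10667837 to 10668156, was the 204th on X, and its q-value was 0.000123 when combined, 0.00567 for replicate 1 and 0.00744 for replicate 2. All 150 X peaks met by both had a smaller q-value in the combined list than in either replicate. This was not particular to X, since it held for nearly all of the 405 autosomal peaks met by both. The autosomal exceptions were 2 peaks with a larger combined q-value than in either replicate and 4 with a value between those of the replicates. These shares follow in part from the lists themselves, since a weak combined peak can miss the q-value limit in a replicate.

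**Figure D2:**
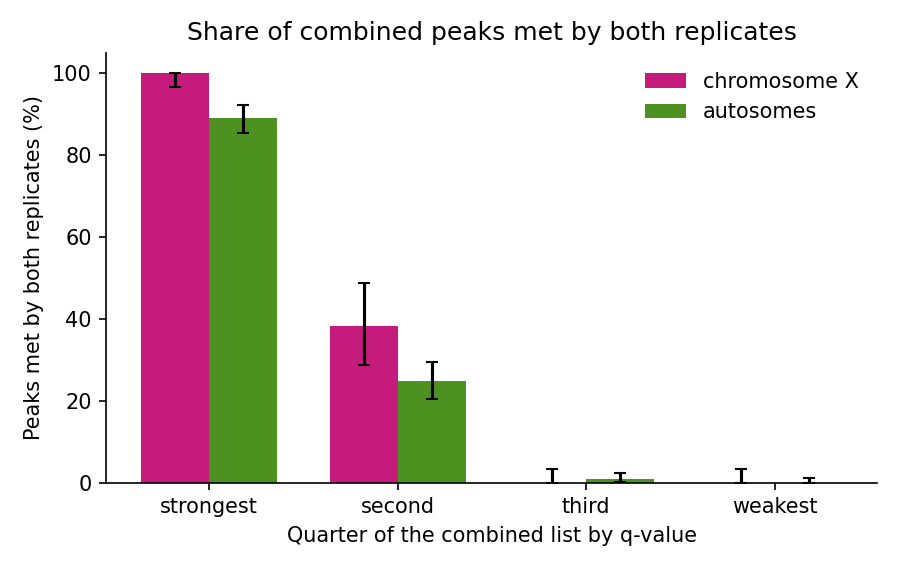
Share of combined peaks met by both replicates (percent, vertical axis) in each 25% of the combined list by q-value, for X and the autosomes, with exact 95% binomial intervals as error bars. The strongest 25% reached 100% on X and 89.1% on the pooled autosomes, and the next 25% reached 38.4% on X and 24.8% on the pooled autosomes.

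The strongest X region met by neither replicate, at 13248253 to 13248535 in the right arm, was 283 bp wide with a q-value of 6.02e-05, and it was the 185th peak on X. The next were 11967486 to 11968228 (743 bp, q-value 9.05e-05), 4222654 to 4223348 (695 bp, 0.000112), 8302808 to 8303739 (932 bp, 0.00017) and 7309805 to 7310110 (306 bp, 0.000176). The region at 8302808 was the widest X peak without a call in either library.

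Along X the peaks were spread nearly evenly over the arms and the centre. By midpoint, 142 lay in the left arm (below 6.137 Mb), 152 in the centre and 129 in the right arm (above 12.48 Mb). This came to 24.8, 24.0 and 24.8 peaks per Mb in the combined list. The replicates gave 14.3, 13.9 and 16.3 peaks per Mb (replicate 1) and 11, 11.5 and 12.5 (replicate 2) in the same order. The autosomes, divided at the same fractions of their spans (33.2 and 69.9%), had 14.7, 21.8 and 15.0 peaks per Mb, so their centres were denser than their arms. The centre held 35.9% of X peaks (31.4 to 40.7%) in 36.7% of the span, and 46.0% of autosomal peaks (43.4 to 48.6%) in the same share of the span. The density on X was therefore 1.10 times that of the pooled autosomes in the centre, 1.68 times in the left arm and 1.65 times in the right arm. In replicate 1 these ratios were 1.20 (centre), 1.83 (left) and 1.97 (right), and in replicate 2 they were 1.24 (centre), 1.90 (left) and 2.09 (right). Chromosome II departed from the other autosomes in the combined list, with 27 peaks per Mb in its right arm, 25.7 in the centre and 11.7 in the left arm. Its right arm and centre were thus denser than those of X. The centre of IV (24.3) was also slightly denser than that of X, and the centre of V (23.9) was level with it. Among left arms the densest autosomal one was that of IV (20.3), below X. The centre held 41.0% of the peaks on III (34.7 to 47.6%) and 42.9% on I (35.6 to 50.4%). Both intervals hold the 36.7% share of the span, so the centres of I and III were not clearly richer in peaks. On II, IV and V the centre held 44.0%, 45.3% and 53.5%. The division of the autosomes is a stand-in, since the arm limits used are those of X.

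**Figure D3:**
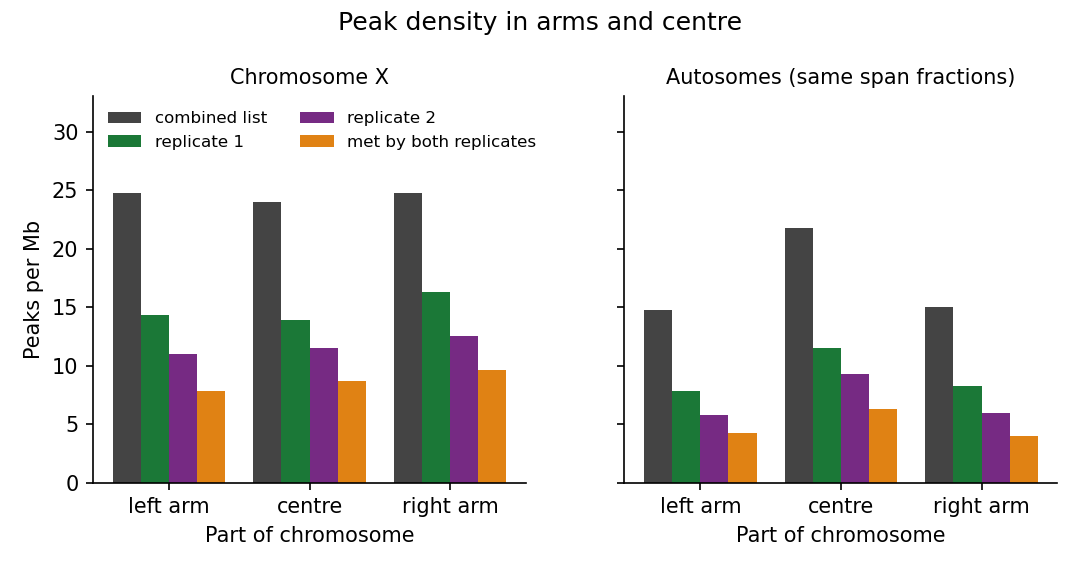
Peaks per Mb (vertical axis) in the left arm, centre and right arm of X and, at the same fractions of the span, of the pooled autosomes, for 4 sets of peaks (bars). On X the combined list had 24.0 to 24.8 per Mb in every part, and on the autosomes 21.8 in the centre against 14.7 and 15.0 in the arms.

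The parts of X differed little in overlap between replicates. Peaks met by both made up 31.7% (24.1 to 40%) in the left arm, 36.2% (28.6 to 44.4%) in the centre and 38.8% (30.3 to 47.7%) in the right arm, with wide, overlapping intervals. The median q-value of peaks met by both was 1.37e-09 in the left arm, 8.35e-10 in the centre and 5.10e-11 in the right arm. Their median width was 585, 594 and 506.5 bp in the same order.

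By megabase, the 17 whole windows of X held from 12 to 40 combined peaks, with a median of 23, against 5 to 50 and a median of 17 in 79 autosomal windows. Leaving aside the 2 densest and 2 sparsest, the other 13 held from 20 to 27. The densest was 2 to 3 Mb, with 40 peaks (22 in replicate 1, 15 in replicate 2), followed by 13 to 14 Mb with 38 (21 and 19). The windows at 5 to 6 Mb and 8 to 9 Mb came next with 27 each. The sparsest were 0 to 1 Mb with 12 peaks (8 in replicate 1, 7 in replicate 2), 1 to 2 Mb with 16 (8 and 5) and 7 to 8 Mb with 20 (10 and 7). In the densest window 14 of 40 peaks met both replicates (35.0%, against 35.5% over X) and 18 met neither. The share met by both over the whole windows ran from 18.8% at 1 to 2 Mb to 52.2% at 14 to 15 Mb. None of the 17 whole windows of X was without a peak of either replicate. Among the 79 autosomal windows 1 had none in replicate 1 and 4 had none in replicate 2, so empty windows were rare there too. Counts of the replicates moved together over the 17 windows, with a Spearman's rho of 0.84 and a Pearson's r of 0.813 (autosomes 0.847 and 0.832 over 79 windows). The windows share the depth of their library, so this is a description only.

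The left end of X was empty over 410 kb. The first combined peak began at 409955 (q-value 1.23e-09), that of replicate 1 at 410016 and that of replicate 2 at 409959, so all 3 lists began with the same region. On the autosomes the first combined peak began between 3.53 kb (I) and 95.1 kb (III) from the left end, although replicate 2 on chromosome III began only at 558.8 kb. The longest stretch between X peaks was 313.6 kb, from 6868034 to 7181620, in the centre and to the right of the strongest region. The next were 264.4 kb from 9667837 to 9932219 and 253.4 kb from 1627317 to 1880760. None of these 3 stretches held a peak of either replicate. The autosomes reached longer gaps, up to 899.7 kb on chromosome II.

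Neighbouring peaks on X were at a median distance of 19.8 kb, against 24.6 kb on the pooled autosomes and 20.4 kb on II. Gaps of 100 kb or more made up 11.6% of the 422 gaps on X (8.72 to 15.1%) and 18.4% of the 1420 autosomal gaps (16.4 to 20.5%). Single autosomes ran from 13.8% on II and 14.7% on IV to 30.4% on I in this class, and the values of II and IV lay within the interval on X. Gaps from 10 to 50 kb made up 34.6% on X (30.1 to 39.4%) and 29.5% on the autosomes (27.1 to 32.0%), with 33.4% on II and 33.3% on IV. This class stood farther from the pooled autosomes in replicate 1, at 33.9% on X and 18.5% on the autosomes. In replicate 2 it made up 27.5% on X and 14.3% on the autosomes. The highest single autosomes were IV (24.75%) and II (22.6%) in replicate 1, and IV (16.3%) and II (15.9%) in replicate 2. Their intervals overlapped those on X. In both replicates the difference from the pooled autosomes was larger in this class than in gaps of 100 kb or more. Those longer gaps made up 23.6% on X and 34.5% on the autosomes in replicate 1, and 32.5% on X and 40.9% on the autosomes in replicate 2. Gaps up to 5 kb numbered 118 on X (28%, 23.7 to 32.5%) and 414 on the autosomes (29.2%, 26.8 to 31.6%). Per Mb these came to 6.83 on X and 5.06 on the autosomes, with 6.69 on II. Gaps under 1 kb made up 9.24% on X (6.65 to 12.4%) and 12% on the autosomes (10.4 to 13.9%). Among peaks met by both replicates, 4 of 149 gaps on X were under 1 kb (2.69%, 0.736 to 6.73%), against 40 of 400 on the autosomes (10.0%, 7.24 to 13.4%). Single autosomes ran from 6.56% on III to 16.1% on V in this class, so X lay below each of them. The intervals on I, II, III and IV overlapped that on X, and only the interval on V (9.32 to 25.2%) lay above it. The smallest gap on X was 202 bp (combined), 225 bp (replicate 1) or 203 bp (replicate 2). On the autosomes it was 203, 201 and 205 bp in the same order, so no list held peaks closer than 200 bp on any chromosome.

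**Figure D4:**
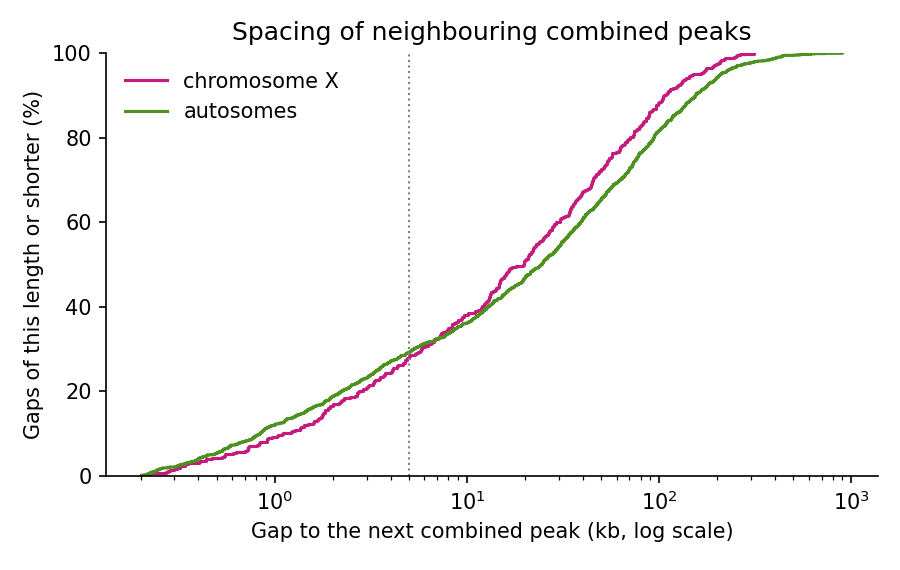
Cumulative share of gaps (percent, vertical axis) by distance to the next combined peak (kb, log scale), for X and the autosomes, with a dotted line at 5 kb. The curves cross between 5 and 10 kb, and 88.4% of X gaps and 81.6% of autosomal gaps are under 100 kb.

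Joining peaks up to 5 kb apart gave 305 groups on X. Of these, 226 were single peaks, 53 held 2, 19 held 3, 3 held 4 and 4 held 5 or 6. Grouped peaks made up 46.6% on X (41.7 to 51.5%) and 45.9% on the autosomes (43.3 to 48.5%) in the combined list. In the single libraries grouped peaks made up 31.8% on X in replicate 1 and 35.3% in replicate 2, against 40.2% and 40.4% on the pooled autosomes. Chromosome I was near or below X in these lists, at 33.8% in replicate 1 and 25% in replicate 2. In replicate 1, IV (35.2%) also lay within the interval on X (26.1 to 37.9%), while II, III and V lay above it. In replicate 2, II (39.5%), III (36.5%) and IV (40.85%) lay within the interval on X (28.7 to 42.4%), and V lay above it. The largest combined group held 6 peaks on III and V as well, and the autosomes reached 11, on II. On X the largest groups held 6 peaks. One spanned 12169228 to 12181059 in the centre (11.8 kb). Its strongest member was the region at 12171341 (q-value 4.94e-25), and 2 of its 6 peaks met both replicates. The other spanned 13002354 to 13012165 in the right arm (9.81 kb) and had 4 peaks met by both, the strongest from 13007982 to 13009244 (q-value 7.02e-13). Groups of 5 lay at 4522198 to 4529227 in the left arm, with 1 peak met by both, and at 9547131 to 9553333 in the centre, with 3.

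Lone peaks met both replicates at a higher share on X than on any autosome. Of the 226 lone X peaks, 73 met both replicates (32.3%, 26.3 to 38.8%), against 168 of 771 (21.8%, 18.9 to 24.9%) on the autosomes. The highest single autosome was II at 26.6% (20.1 to 34.0%), an interval that overlapped that on X. In groups of 3 or more the shares were alike, at 42.9% on X (32.5 to 53.7%) and 41.4% on the autosomes (36.3 to 46.7%). Lone peaks met by neither replicate made up 32.3% on X and 45.0% on the autosomes, where single chromosomes ran from 35.5% (II) to 51.9% (I). Counted as groups, 125 of the 305 on X held a peak met by both (41.0%, 35.4 to 46.7%), against 312 of 1011 on the autosomes (30.9%, 28 to 33.8%). The highest single autosomes were II (35.1%, 28.9 to 41.7%) and IV (33.3%, 27.5 to 39.6%), and both intervals overlapped that on X.

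X peaks had a median width of 447 bp (quartiles 342 and 589 bp), against 402 bp (312 and 568 bp) on the pooled autosomes. Chromosome I was like X, with a median of 444 bp in the combined list, and the other autosomes lay between 377 bp (V) and 413 bp (II). The replicate lists gave 424 bp on X and 413.5 bp on the autosomes (replicate 1), and 450 bp on X and 394 bp on the autosomes (replicate 2). Chromosome I had 484 bp in replicate 1, above X, and 449 bp in replicate 2, level with X. Peaks under 300 bp made up 13.7% on X and 20.4% on the autosomes (9.34% on I, from 18.4 to 26.2% on the others), while those of 1000 bp or wider had nearly equal shares, 6.38% on X and 6.60% on the autosomes. Width went with overlap on X: 0 of 58 peaks under 300 bp met both replicates, 26.4% of those from 300 to under 500 bp, 53.9% of those from 500 to under 1000 bp and 81.5% of those of 1000 bp or wider. On the autosomes these shares were 2.41%, 24.4%, 43.8% and 74.5%. Width also went with q-value, with a Spearman's rho between width and −log10 q-value of 0.600 over the 423 X peaks and 0.552 over the 1425 autosomal peaks. X peaks met by both had a median width of 570.5 bp, against 338 bp for those met by neither, and on chromosome I the peaks met by both were wider still (622 bp). The narrowest X peak was 150 bp, from 15470013 to 15470162. After the region at 6740645, the widest were those at 13143609 (2039 bp), 11605398 (1765 bp), 12171341 (1729 bp) and 4960971 (1674 bp), all among the 10 strongest.

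Peaks called in both replicates were compared one to one, which gave 150 pairs on X. Their midpoints lay a median of 46.8 bp apart, and 119 pairs (79.3%) were within 100 bp. The autosomes gave 42.5 bp and 78.2% over 408 pairs. Starts differed by a median of 46.5 bp and ends by 54.0 bp on X. The q-values of the pairs gave a Spearman's rho of 0.471 and a Pearson's r on the −log10 scale of 0.530 on X, against 0.594 and 0.831 on the pooled autosomes. Single autosomes had rho from 0.379 (I, 38 pairs) to 0.634 (II) and r from 0.526 (V) to 0.966 (III), so X lay within both ranges. Without the strongest 5% of pairs, rho was 0.393 and r was 0.340 on X, and 0.530 and 0.477 on the autosomes. These values are across peaks of the same pair of libraries and carry no test. In 85 of the X pairs the q-value was smaller in replicate 1 and in 65 it was smaller in replicate 2.

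**Figure D5:**
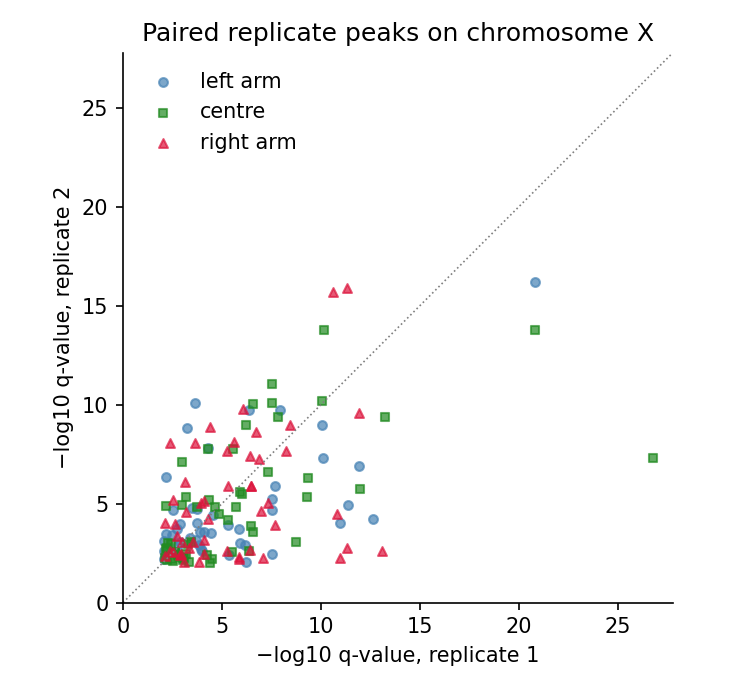
The −log10 q-value in replicate 1 (horizontal axis) and replicate 2 (vertical axis) of the 150 pairs of overlapping replicate peaks on X, by part of the chromosome, with a dotted line of equal values. The pair farthest to the right belongs to the region at 6740645, whose paired replicate 2 peak has a q-value of 4.97e-08.

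Almost every replicate peak on X was also in the combined list. All 201 of replicate 2 met it, and 245 of the 255 of replicate 1 did (96.1%, against 96.1% on the autosomes). The 10 left out had a median q-value of 0.00767, and none met replicate 2. The strongest of them lay at 13655917 to 13656137 (q-value 0.00568), 4190518 to 4190864 (0.00667) and 9949277 to 9949601 (0.00668), each more than 8 kb from the nearest combined peak.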

How the data were processed

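Per the file headers, PeakSeq called the peaks, and positions refer to WormBase WS220. Header comments record a liftover from another build, and none of the changed peaks lies on X. The aligner, the earlier build and how the combined list was made are not given in the sources that were used. The only deposited value is the q-value of each peak, a p-value adjusted for multiple calls. It depends on depth, which is unknown, so it served to order peaks within a list and to set the same peaks of the replicates side by side. The members, the named-region rule and the comparisons were chosen with earlier results of these data known.

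Peaks met when they shared at least 1 bp. The part of a chromosome was set by the peak's midpoint. Arm limits on X were 6.137 and 12.48 Mb. Groups joined peaks up to 5 kb apart. Named regions on X are the 10 strongest met by both replicates, the 5 widest, the 5 strongest met by neither, the 3 largest groups, densest and sparsest windows, and longest stretches (ties included), and the 3 strongest replicate peaks left out of the combined list. Pairs are replicate peaks that each have the largest overlap with the other. Alternatives were other overlap rules, stronger peaks, other distances and windows, and single lists. Python 3.11.15, NumPy 2.4.6, pandas 2.3.3, SciPy 1.17.1 and matplotlib 3.10.9 were used, and the procedures were tested on simulated data. No sequence or annotation of WS220 was used here.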

Additional observations from a re-analysis of the deposited data

How the results depend on the processing

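Over 13 results and 50 alternatives, 28 values stayed within the set margin, 22 moved and 0 reversed. The margin was the 95% interval of a share, the spread between replicates of the density ratio and the median width, 0.1 for a correlation, and the counting error of the left-arm density. The alternatives without chromosome I, in 2 results, and with the left arm counted from the first base were chosen after the data were seen. The shares of X peaks in the left arm, centre and right arm stayed within their intervals among peaks met by both, in the stronger 50%, as groups and in single lists. The central 50% of the span, a longer stretch by construction, held 50.8% of X peaks. With midpoints within 200 bp, 31% of X peaks and 24.2% of autosomal peaks met both replicates. Meeting 1 given replicate in place of both is an easier rule, and it gave 46.6% to 57.0% on X and 39.8% to 50.3% on the autosomes. X held 27% of the peaks met by both replicates and 25.1% to 25.6% of single lists, against 22.9% of the combined list. The share in groups was 29.1% on X and 30.7% on the autosomes at 2 kb, and 59.6% and 56.0% at 10 kb. It was 28% and 35.3% among peaks met by both, and 31.8% to 35.3% and 40.2% to 40.4% in single lists, which hold fewer peaks. Without chromosome I, the ratio of density on X to that on the autosomes was 1.32 in place of 1.41. ChIP and Input libraries were not compared as pairs, because each result describes peak lists and no Input values were used. Unknown depth limits any comparison of list lengths, and the X span leaves out the ends beyond the first and last peaks.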
